A study of Mus musculus with 9 samples.

Results

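The 5 genes of the C/EBP family, Cebpa, Cebpb, Cebpd, Cebpe and Cebpg, were followed across fibroblasts that lack C/EBPβ and were given back either 1 of its isoforms or none. They were chosen by gene symbol from the 23337 gene symbols of the count table, and all 5 are listed there. The question was whether the mRNAs of the other family members differ when a C/EBPβ isoform is put back. RNA came from immortalised mouse embryonic fibroblasts (MEFs) of mixed C57BL/6 x 129 background, all of them Cebpb-knockout (ko). They were stably transfected with empty vector (EV), with rat C/EBPβ-LAP or with rat C/EBPβ-LIP, and all groups were kept under Zeocin selection. Each group had 3 libraries, which gives 9 in all. The labels do not say whether the libraries of a group came from separate cultures, so p-values measure only the spread between these samples, which may be technical. Each group is a stably transfected, immortalised line, and the methods do not say whether it was 1 clone or a pool.

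C/EBP proteins are basic leucine zipper (bZIP) transcription factors that bind DNA as dimers, with themselves, with each other or with other bZIP proteins. C/EBPα is known for driving terminal differentiation of fat cells, hepatocytes and granulocytes, C/EBPβ and C/EBPδ for acute-phase and inflammatory responses and for the early steps of fat cell formation, and C/EBPε for granulocyte maturation. C/EBPγ lacks a classical activation domain and often acts as a dimer partner of the others. LAP and LIP are made from the same Cebpb mRNA by use of different start codons. LIP keeps the DNA-binding and dimerization part but lacks the activation domains, so that it can occupy C/EBP sites and pair with the other members.

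The genes lie on 4 mouse chromosomes. In RefSeq on GRCm38.p6, Cebpa is a gene of 1 exon at chr7:35119293-35121928 on the plus strand, and Cebpg, with 2 exons, lies at chr7:35046422-35056566 on the minus strand. These neighbours are 62726 bases apart. Cebpb, with 1 exon, is at chr2:167688915-167690432, and Cebpd, with 1 exon, is at chr16:15887286-15889545, both on the plus strand. Cebpe, with 2 exons, is at chr14:54710363-54712174 on the minus strand.

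C/EBP factors can bind at the promoters of their own family, so the 250 bases before the annotated start are shown for the members that the RefSeq promoter table of GRCm38.p6 holds, which are Cebpa, Cebpb and Cebpg. Cebpd and Cebpe had no entry in it. Both strands were searched for the C/EBP motif TTGCNNAA, the CCAAT box CCAAT, the TATA motif TATAAA, the cyclic AMP response core TGACG and the GC box GGGCGG, and overlapping matches were all counted. Capitals mark TATAAA in Cebpa, the 3 matches to TGACG in Cebpb (1 of them read on the other strand) and the 2 matches to CCAAT, read on the other strand, in Cebpg.
Cebpa, chr7:35119043-35119292, plus strand: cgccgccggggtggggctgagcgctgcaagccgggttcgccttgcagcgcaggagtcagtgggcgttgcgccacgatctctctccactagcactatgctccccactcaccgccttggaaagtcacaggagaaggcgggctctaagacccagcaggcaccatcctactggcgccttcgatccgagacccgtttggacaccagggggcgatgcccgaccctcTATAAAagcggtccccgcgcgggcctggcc
Cebpb, chr2:167688665-167688914, plus strand: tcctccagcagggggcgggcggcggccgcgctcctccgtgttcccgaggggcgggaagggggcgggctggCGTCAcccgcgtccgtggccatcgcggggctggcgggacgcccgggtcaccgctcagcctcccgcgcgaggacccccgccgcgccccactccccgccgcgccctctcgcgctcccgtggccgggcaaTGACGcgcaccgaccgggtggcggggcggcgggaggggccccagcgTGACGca
Cebpg, chr7:35056567-35056816, minus strand: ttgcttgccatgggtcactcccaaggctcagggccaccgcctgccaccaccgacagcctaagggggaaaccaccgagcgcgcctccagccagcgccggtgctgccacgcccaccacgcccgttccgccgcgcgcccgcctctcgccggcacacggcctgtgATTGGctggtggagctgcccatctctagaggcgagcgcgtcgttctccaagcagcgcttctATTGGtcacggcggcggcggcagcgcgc

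TTGCNNAA was found in 0 of these 3 windows, and in 9.56% of all 32851 promoter windows of this length. Only exact matches were counted, so C/EBP sites that depart from this pattern were not found. The TATAAA of Cebpa ended 25 bases before the start, and 12.4% of all windows held this motif. TGACG was in 17.8% of all windows and CCAAT in 33.8%. GGGCGG, which 32.7% of all windows held, occurred 5 times in Cebpb and 0 times in the other 2 windows. The windows had 66.4% G and C in Cebpa, 81.6% in Cebpb and 70.8% in Cebpg, against a median of 52.4% over all windows. These matches describe letters and do not show binding.

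The libraries held 24839139 to 33522082 counts on genes. Levels are given as CPM, counts scaled to a common library size, and a floor of 3 counts corresponds to 0.0895 to 0.121 CPM when only the library totals are used. Reads carried no molecular identifiers, so the floor speaks for counting error alone. Pearson's r of log2 CPM across 11535 genes, which are not independent replicates, was 0.988 to 0.994 within EV, 0.975 to 0.984 within LAP and 0.966 to 0.976 within LIP. The 10 fibroblast markers summed to 33339 to 38004 CPM in EV, 24581 to 41316 in LAP and 14527 to 28775 in LIP. Nearly all of it came from Col1a1, Col1a2, Col3a1, Vim and Fn1. In EV, Thy1 had a mean of 264 CPM, Dcn 18.6, Pdgfra 2.41, Pdgfrb 1.06 and Lum 0.668. Lum had 0 counts in LIP. Of the markers of other cells, Ptprc and Itgam (blood), Pecam1 (endothelium) and Ttr and Serpina1a (hepatocytes) had 0 counts in every library. The measured genes of each of these 3 lists summed to at most 8.91 CPM in any library. Epithelial markers summed to 485 to 1004 CPM, nearly all of it from the keratins Krt8 and Krt14, while Epcam lay between 1 and 18 counts. Of these 4 lists, 0 genes passed the test in any comparison, where 0.0606% to 1.05% of all genes passed. With the replicate number as a term, Csf1r, Tek and Alb were lower in LIP than in LAP, in a model that called 6.51% of all genes.

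Cebpb, the gene knocked out in all 3 groups, still collected reads in every library. Its libraries held 973, 684 and 1041 counts for EV, 1077, 709 and 817 in LAP and 816, 863 and 985 in LIP. In CPM, this was 28.7 ± 2.97 CPM in EV, 29.6 ± 3.90 CPM in LAP and 31.1 ± 2.59 CPM in LIP (SD, n = 3 each). EV has no C/EBPβ insert, and its libraries overlapped with those of both isoforms. Whether HTSeq assigned reads of the rat insert to mouse Cebpb was not tested, nor which part of the mouse gene the reads came from, so Cebpb does not check the labels and its counts are not a measure of LAP or LIP.

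Cebpd was the most abundant member by counts in every library of every group. It encodes C/EBPδ, an early factor of the inflammatory and fat cell programmes. EV libraries had 201, 142 and 207 CPM, LAP libraries 189, 147 and 177 CPM and LIP libraries 149, 64.5 and 86.7 CPM. LIP 2 and LIP 3 thus lay below all EV and LAP libraries, while LIP 1 lay above EV 2 and LAP 2. The group means were 183 ± 36.1 CPM in EV, 171 ± 21.4 CPM in LAP and 100.001 ± 43.7 CPM in LIP (SD, n = 3 each). In counts, the libraries had 6461, 3835 and 7057 in EV, 6121, 4099 and 4797 in LAP and 3647, 1968 and 2683 in LIP.

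Cebpg, the gene of the dimer partner C/EBPγ, was second by counts. It had 62.0, 73.2 and 63.1 CPM in EV, 60.4, 82.8 and 64.1 CPM in LAP and 63.1, 55.0 and 68.6 CPM in LIP. The 3 groups overlapped, with means of 66.1 ± 6.15, 69.1 ± 12.0 and 62.2 ± 6.87 CPM (SD, n = 3 each).

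Cebpa, the gene of the differentiation factor C/EBPα, was low. Its libraries held 195, 121 and 204 counts for EV, 171, 91 and 138 in LAP and 91, 122 and 169 in LIP. This was 5.50 ± 0.899 CPM in EV, 4.55 ± 1.11 CPM in LAP and 4.39 ± 0.936 CPM in LIP (SD, n = 3 each), and again the groups overlapped. Cebpe, the gene of the granulocytic C/EBPε, had 0 counts in all 9 libraries. A level under the floor of 0.0895 to 0.121 CPM could not be detected at this depth, and no fold change was calculated for Cebpe.

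**Figure D1:**
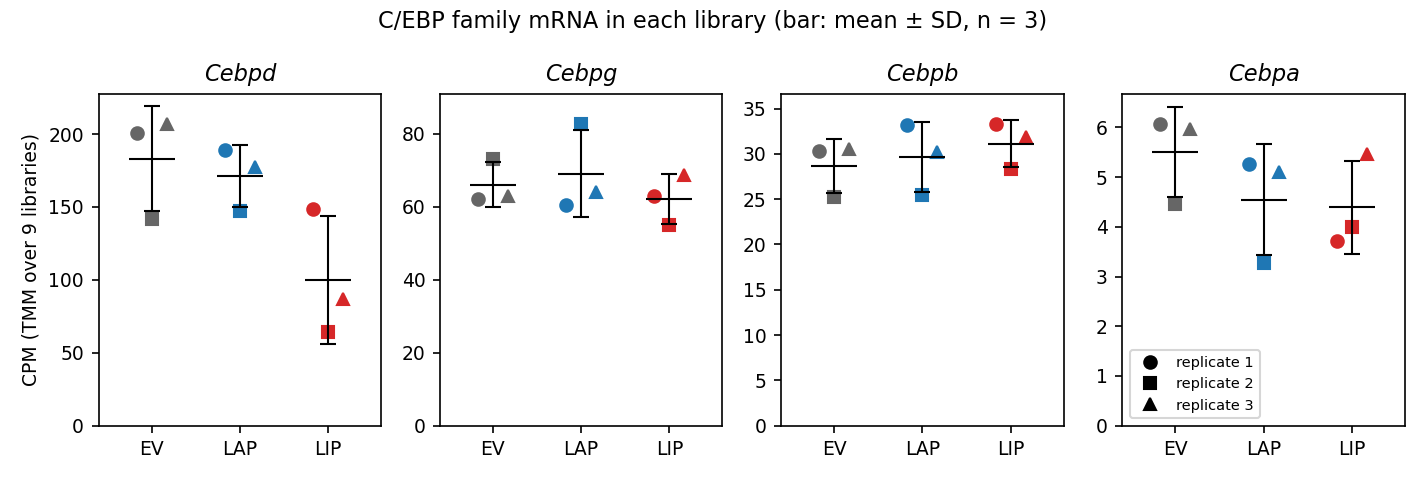
Normalised mRNA of the 4 C/EBP genes with counts, in CPM on the vertical axis, in each EV, LAP and LIP library. Points are libraries, shaped by replicate number, and lines are the mean ± SD (n = 3). Cebpd lies at 64.5 to 149 CPM in LIP and 142 to 207 CPM in EV, with LIP 1 above EV 2, and the groups of the other genes overlap as well.

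Because long transcripts collect more reads, levels of different genes were compared per kilobase of transcript. In EV, Cebpd stood at 81.0 ± 16.0 CPM per kb, Cebpb at 18.9 ± 1.96, Cebpg at 14.0 ± 1.31 and Cebpa at 2.09 ± 0.341 CPM per kb (SD, n = 3 each). The order by mean was the same in LAP and LIP. Cebpb and Cebpg were neighbours in it, with 19.5 ± 2.57 and 14.7 ± 2.55 CPM per kb in LAP and 20.5 ± 1.70 and 13.2 ± 1.46 CPM per kb in LIP. Their libraries overlapped in LAP and lay apart in EV and LIP. Summed over the family, mRNA per kb was 116 ± 16.98 in EV, 112 ± 9.92 in LAP and 79.6 ± 21.4 in LIP (SD, n = 3 each, CPM per kb). Without Cebpd, the sums were 35.01 ± 1.01, 35.9 ± 0.676 and 35.4 ± 3.13 CPM per kb. Cebpd made up 69.4% ± 3.93 of the family's counted mRNA per kb in EV, 67.7% ± 2.62 in LAP and 54.0% ± 8.98 in LIP (SD, n = 3 each). The family sums overlapped between LIP and EV libraries, while the Cebpd share was 47.3% to 64.2% in LIP and 64.9% to 71.9% in EV, without overlap. As a share of family counts, without division by length, the groups overlapped, with Cebpd at 59.8% in LIP 1 and 57.9% in EV 2. Sums and shares were not tested. They include Cebpb as counted on the knocked-out mouse gene and may leave out mRNA of the rat insert in LAP and LIP. They are therefore not the share of Cebpd in all C/EBP mRNA of these cells. Sums and shares also depend on the transcript length used. With the longer GENCODE transcript of Cebpd, a choice made after seeing the data, the share was 57.8% ± 4.46 in EV, 55.7% ± 2.92 in LAP and 41.6% ± 8.98 in LIP, the family sums were 84.1 ± 10.7, 81.8 ± 6.19 and 62.3 ± 13.8 CPM per kb (SD, n = 3 each), and in the lowest LIP library Cebpd, at 17.2 CPM per kb, lay below Cebpb.

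**Figure D2:**
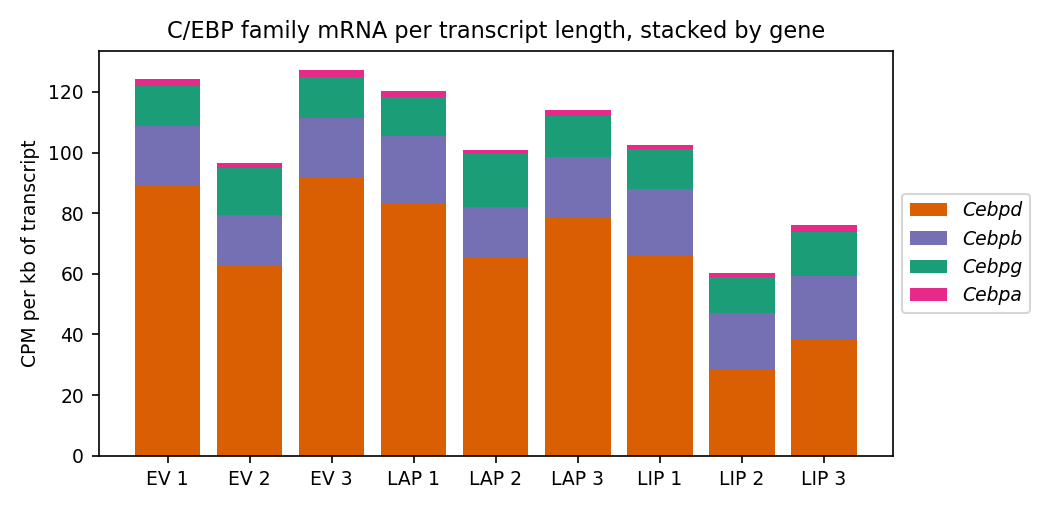
C/EBP family mRNA in each library as CPM per kb of transcript on the vertical axis, stacked by gene. With RefSeq lengths, Cebpd forms the largest block in all 9 libraries, and the sum of the other 3 genes stays near 35.01 to 35.9 CPM per kb in the mean of each group. Cebpb is shown as counted on the knocked-out mouse gene, so mRNA of the rat insert may be missing in LAP and LIP.

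In LIP against EV, 0 of the 4 members tested passed the threshold, and 0.396% of all genes did. The threshold used throughout is an adjusted p under 0.05, where p comes from the quasi-likelihood (QL) test of edgeR and is adjusted over every gene tested, here 18203, by the Benjamini-Hochberg method. DESeq2 and the exact test of edgeR also called 0 members. Cebpd had the largest difference. Its log2 fold change was -0.87 (standard error, SE, 0.266, 95% interval -1.45 to -0.30), an mRNA level of 0.546 times that in EV, with an unadjusted p of 0.00630 in the fit across all genes. Adjusted over all genes, the edgeR p was 0.214. By p, Cebpd ranked 537 of the 18203 genes, and 11% of all genes had an unadjusted p under 0.05. The two-sided exact permutation test of CPM gave p = 0.2, where 0.1 is the smallest p that 3 libraries against 3 allow. Groups did not overlap for 0 members and for 15.6% of all genes. With the replicate number as a term, Cebpd passed the threshold, with a log2 fold change of -0.94 (SE 0.190, adjusted p = 0.0126). In that model 2.57% of all genes passed. Pair by pair, Cebpd in LIP was 0.741, 0.456 and 0.419 times the level in EV. Same-numbered LIP and EV libraries did not all deviate together, with a mean r of 0.134, against -0.064 for other numbers. They were not treated as paired. LAP was treated as paired by number with both EV and LIP, so whether LIP and EV are paired is not settled. The call of Cebpd depends on this choice.

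The size of the Cebpd difference in LIP against EV depended on which LIP library was left out. Without LIP replicate 1 the log2 fold change was -1.27 and passed the threshold (SE 0.220, adjusted p = 0.0269). Without LIP replicate 2 it was -0.64 (SE 0.235, adjusted p = 0.433). The 6 fits with 1 library left out all gave a lower level in LIP, and 1 of them passed the threshold.

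The other members differed less between LIP and EV. Cebpa had a log2 fold change of -0.33 (SE 0.255, 95% interval -0.88 to 0.23) and Cebpg one of -0.09 (SE 0.155, 95% interval -0.42 to 0.25). For Cebpb it was 0.12 (SE 0.164, 95% interval -0.24 to 0.47). Their adjusted p were 0.701, 0.858 and 0.796. By these intervals, a rise of Cebpg in LIP beyond 1.19-fold and of Cebpa beyond 1.17-fold lay outside the 95% range, and so did a drop of Cebpg below 0.746 times and of Cebpa below 0.544 times the EV level. Smaller differences could not be resolved with 3 libraries per group. The median log2 fold change of the 4 members was -0.21, beside 0.04 over all genes tested.

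In LAP against EV, which uses the same EV libraries, 0 of 4 members passed the threshold and 0 had an unadjusted p under 0.05, while 0.0606% of all 18156 genes passed. Cebpd had a log2 fold change of -0.11 (SE 0.182, 95% interval -0.50 to 0.28) and Cebpa one of -0.28 (SE 0.242, 95% interval -0.80 to 0.23). Cebpb and Cebpg had log2 fold changes of 0.04 and 0.05, with 95% intervals of -0.32 to 0.40 and -0.29 to 0.40. The adjusted p of the 4 members lay between 0.918 and 0.992. Groups did not overlap for 0 members and for 7.57% of all genes. Same-numbered LAP and EV libraries deviated together from their group means, so a model with the replicate number was also fitted. It left 0 members past the threshold, while the share of all genes rose to 0.297%.

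The isoforms were also compared directly. In LIP against LAP, 0 of 4 members passed the threshold, and 1.05% of all 18166 genes did. Cebpd had a log2 fold change of -0.76 (SE 0.270, 95% interval -1.32 to -0.20, adjusted p = 0.286). Its unadjusted p was 0.0109 in the fit across all genes, rank 689, and 9.28% of all genes had an unadjusted p under 0.05. Same-numbered LIP and LAP libraries also deviated together, and Cebpd was lower in LIP once the replicate number was a term of the model. The log2 fold change was then -0.84 (SE 0.179, 95% interval -1.19 to -0.48, adjusted p = 0.000390), and 6.51% of all genes passed the threshold in that model. Its SE lay close together for genes with many counts, at 0.174 for Col1a1, Vim and Ep300. The SE and adjusted p of Cebpd thus reflect a spread shared across genes more than its own spread over 3 pairs. The same limit holds for the other calls of that model. Pair by pair, Cebpd in LIP was 0.789, 0.438 and 0.488 times the level in LAP, lower in 3 of 3 pairs. Without the replicate number, the log2 fold change was -1.17 when LIP replicate 1 was left out (adjusted p = 0.0666) and -0.53 when LIP replicate 2 was left out (adjusted p = 0.688).

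The remaining members had small differences between the isoforms. Cebpa, Cebpb and Cebpg had log2 fold changes of -0.04, 0.09 and -0.13 in LIP against LAP, with 95% intervals of -0.70 to 0.62, -0.37 to 0.54 and -0.57 to 0.31. The sign of Cebpa turned to 0.03 with scaling by total counts alone. Groups did not overlap for 0 members and for 12.8% of all genes.

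**Figure D3:**
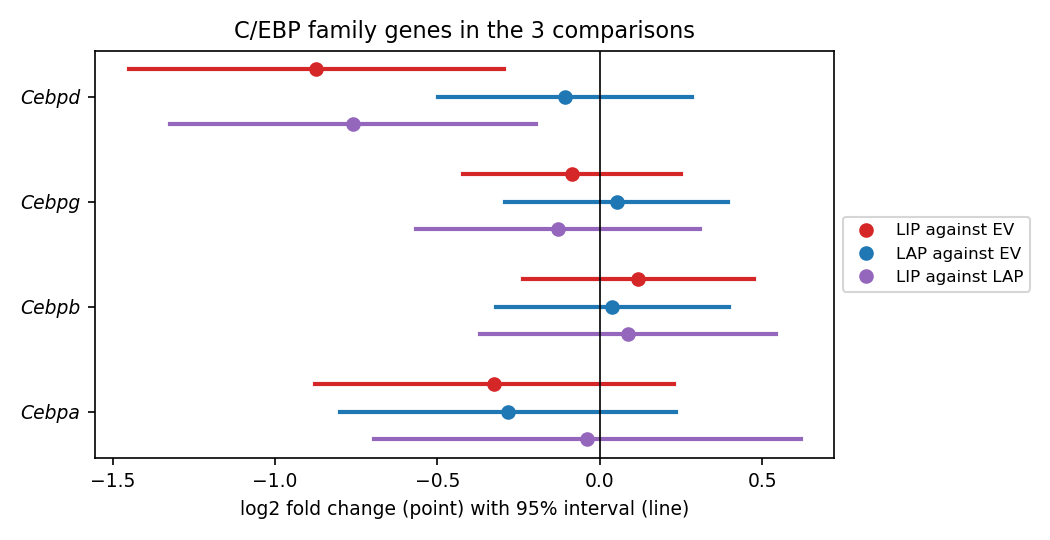
Log2 fold change of 4 C/EBP genes on the horizontal axis (points) with 95% intervals (lines) in the 3 comparisons, without the replicate number as a term. The intervals of Cebpd in LIP against EV (-1.45 to -0.30) and LIP against LAP (-1.32 to -0.20) lie below 0, and all other intervals include 0.

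**Figure D4:**
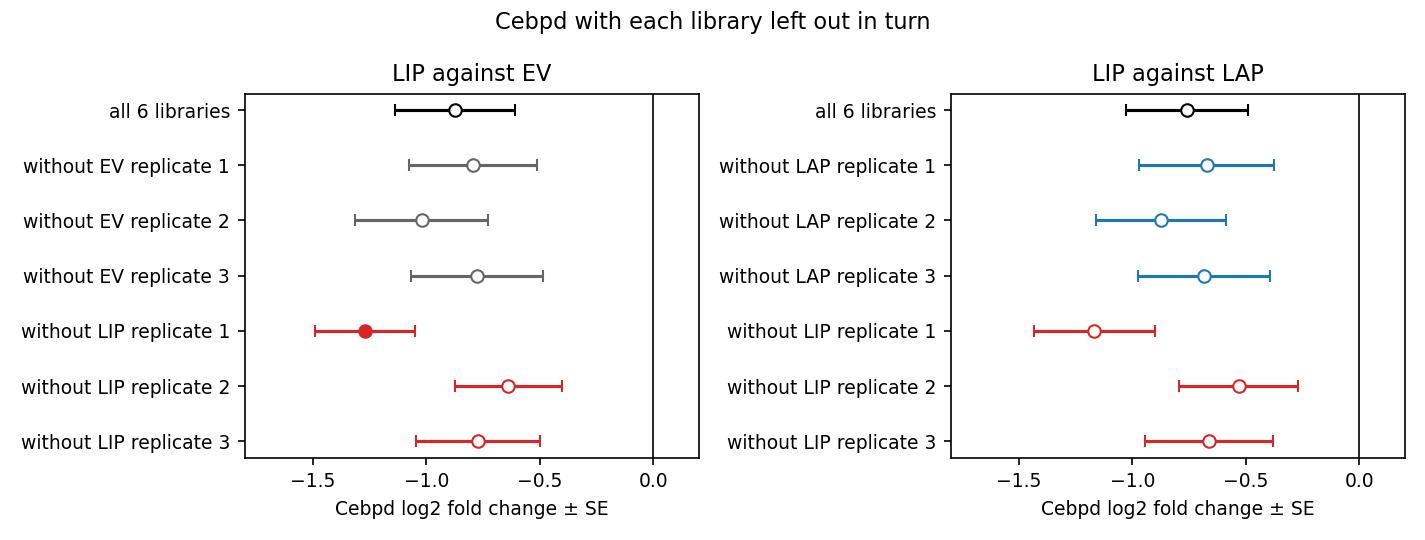
Log2 fold change of Cebpd ± SE with all 6 libraries and with each library left out, in LIP against EV (left) and LIP against LAP (right). The filled point, without LIP replicate 1 at -1.27, has an adjusted p under 0.05, and open points do not.

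The library kit does not mark strand, so reads of a stretch that a member shares with a gene on the other strand cannot be told apart. Spidr, listed in the table as 2310008H04Rik, lies on the strand opposite to Cebpd and shares 322 bases of its RefSeq span. It encodes a scaffold protein of DNA repair. Its libraries held 2032, 1720 and 2262 counts for EV and 1086, 1446 and 1528 in LIP, and these groups did not overlap in CPM, with 64.3 ± 1.69 in EV and 47.0 ± 2.53 in LIP (SD, n = 3 each). In LIP against EV, 15.6% of all genes did not overlap. The log2 fold change of 2310008H04Rik in LIP against EV was -0.45 (SE 0.143, adjusted p = 0.234). How many reads of the shared stretch went to either gene was not tested. Tmem189, opposite to Cebpb, had a log2 fold change of -0.06 in LIP against EV (adjusted p = 0.897). It shares 312 exon bases with Cebpb in GENCODE and 0 in RefSeq.

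The genes with the most similar pattern over the 9 libraries were picked by Pearson's r of log2 CPM among 10251 genes. These values describe libraries that share groups, and they carry no test. For Cebpd they were Dtnbp1 (r = 0.99), Lipg (r = 0.98) and Alpl (r = 0.96). Dtnbp1 encodes dysbindin, Lipg endothelial lipase and Alpl tissue-nonspecific alkaline phosphatase. Alpl had 5.46 ± 3.68 CPM in EV, 5.75 ± 4.76 in LAP and 0.676 ± 0.734 in LIP (SD, n = 3 each). For Cebpa the nearest genes were Arap1, Fbxl17 and Tysnd1 (r = 0.95, 0.94 and 0.94), for Cebpb Fxr2, Prrc2a and Mypop (r = 0.94, 0.92 and 0.92) and for Cebpg Dnajc9, Crk and Arl6ip5 (r = 0.97, 0.96 and 0.96). Between the members themselves r lay between -0.59 and 0.45 in the 6 pairs. The r of the nearest genes were picked as the highest among 10251 genes, so they are no measure for these pairs.

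The bZIP genes that can pair with or resemble C/EBP were examined next. In LIP against EV, 0 of 11 passed the threshold, beside 0.396% of all genes, with a median log2 fold change of -0.18. Ddit3 encodes CHOP, a C/EBP-like stress factor that forms dimers with the members. It had 22.5, 21.9 and 25.3 CPM in EV and 17.3, 18.6 and 16.8 CPM in LIP, and a log2 fold change of -0.40 (SE 0.170, adjusted p = 0.410). These groups of Ddit3 did not overlap, which held for 2 of 11 genes of the list and for 15.6% of all genes. Atf4, the stress-response activator that acts upstream of Ddit3, had a log2 fold change of -0.12 (SE 0.194, adjusted p = 0.832). The smallest p in the list was that of Dbp, a circadian bZIP factor, with 4.26 ± 4.01 CPM in EV, against 1.33 ± 1.15 CPM in LIP (SD, n = 3 each) and an adjusted p of 0.380. In LAP against EV and in LIP against LAP, 0 of 11 passed as well, beside 0.0606% and 1.05% of all genes. With the replicate number as a term, 2 of 11 were lower in LIP than in LAP, in a model that called 6.51% of all genes. They were Ddit3 and Dbp, with log2 fold changes of -0.64 and -1.04, at adjusted p of 0.0206 and 0.0232. With that term Dbp was also lower in LIP than in EV (adjusted p = 0.0192), where 2.57% of all genes passed. LIP and EV libraries were not treated as paired, so this fit was only an alternative.

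Cebpz is named for CCAAT binding but is not a bZIP protein. It had 106 ± 3.93 CPM in EV, 106 ± 8.64 in LAP and 110 ± 21.96 in LIP (SD, n = 3 each), and a log2 fold change of 0.06 in LIP against EV (adjusted p = 0.921). Together with the 3 subunits of the CCAAT-binding factor NF-Y, 0 of 4 passed in each comparison, where 0.0606% to 1.05% of all genes passed. The table has no row for Cebpzos.

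Of 18 regulators and cofactors of the family, 0 passed in each comparison. Of all genes, 0.396% passed in LIP against EV, 0.0606% in LAP against EV and 1.05% in LIP against LAP. Among them were the Tribbles genes, some of which promote C/EBP degradation, and kinases that phosphorylate C/EBPβ. The smallest p in LIP against EV was that of Il6st, the gp130 signalling receptor, with 495 ± 38.9 CPM in EV, against 337 ± 76.6 CPM in LIP (SD, n = 3 each). Its log2 fold change was -0.55 (SE 0.197, adjusted p = 0.310). With the replicate number as a term, 1 of 18 was lower in LIP than in LAP, in a model that called 6.51% of all genes. It was Trib2, with a log2 fold change of -0.78 (adjusted p = 0.00550).

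Of the inflammatory genes known as C/EBP targets, 1 of 11 was lower in LIP than in EV, where 0.396% of all genes passed. It was the neutrophil chemokine Cxcl5, with 128 ± 37.9 CPM in EV, against 22.3 ± 14.7 CPM in LIP (SD, n = 3 each). Its log2 fold change was -2.52 (SE 0.384, adjusted p = 0.0152). Cxcl1, a chemokine of the same class, had 274 ± 14.8 CPM in EV, against 83.8 ± 46.4 CPM in LIP, with an adjusted p of 0.0540. The list's median log2 fold change was -0.68 in LIP against EV, 0.47 in LAP against EV and -0.99 in LIP against LAP, beside 0.04, 0.02 and 0.02 over all genes. In LAP against EV, 0 of 11 passed, and 1 did with the replicate number as a term, the acute-phase gene Saa3 (log2 fold change 0.96, adjusted p = 0.0401), where 0.297% of all genes passed. In LIP against LAP, 2 of 11 were lower, Cxcl1 and Cxcl5, with log2 fold changes of -2.09 and -3.13, at adjusted p of 0.00972 and 0.000373, where 1.05% of all genes passed. The calls of Cxcl1 and Cxcl5 did not hold with edgeR's filter on low counts, filterByExpr, where the adjusted p was 0.131 for Cxcl5 in LIP against EV and 0.169 and 0.0869 for Cxcl1 and Cxcl5 in LIP against LAP, or with at least 10 counts required in every library. With the replicate number as a term, 8 of 11 were lower in LIP than in LAP, in a model that called 6.51% of all genes. With that term 5 of 11 were lower in LIP than in EV, where 2.57% of all genes passed, though LIP and EV were not treated as paired.

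Fat cell and granulocyte targets were mostly near the floor. Of the adipogenic list, 6 of 8 genes had counts, and 0 passed in LIP against EV or LAP against EV. Of all genes, 0.396% and 0.0606% passed there. Lpl, the lipoprotein lipase, had 21.6 ± 2.68 CPM in EV, 40.0 ± 19.1 in LAP and 7.57 ± 7.58 in LIP (SD, n = 3 each), and was lower in LIP than in LAP (log2 fold change -2.39, adjusted p = 0.0372). With filterByExpr the adjusted p of Lpl was 0.298. With the replicate number as a term, Lpl and the fatty acid binding protein gene Fabp4 were lower in LIP than in LAP. Their log2 fold changes were -2.79 and -1.39, in a model that called 6.51% of all genes. With that term Lpl was also lower in LIP than in EV (adjusted p = 0.0104), where 2.57% of all genes passed. This fit, too, was only an alternative for LIP and EV, which were not treated as paired. Pparg, the fat cell receptor induced by C/EBP factors, had at most 11 counts in any library. Of the 7 granulocytic genes, which C/EBPε and C/EBPα control in blood cells, 0 passed in each comparison, beside 0.0606% to 1.05% of all genes. Their summed level was at most 0.683 CPM in any library. With the replicate number as a term, Camp, with at most 18 counts in any library, was lower in LIP than in LAP (adjusted p = 0.00556). That model called 6.51% of all genes.

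The summed level of fibroblast markers was lower in the LIP libraries than in those of EV, and the mean of Cebpd was also lower in LIP. Of 10 fibroblast markers, 0 passed the threshold in LIP against EV and 7 had an unadjusted p under 0.05, all lower, where 11% of all genes had such a p. Their median log2 fold change was -1.09, beside 0.04 over all genes. Col1a1, the type I collagen chain, had 8139 ± 538 CPM in EV, against 4578 ± 1252 CPM in LIP (SD, n = 3 each). Vim, of the same list, had 4556 ± 413 CPM in EV, against 4348 ± 893 CPM in LIP (SD, n = 3 each), and its libraries overlapped. In LIP against LAP, 0 of 10 passed without and 8 of 10 were lower with the replicate number as a term, the model in which 6.51% of all genes passed. With that term, 4 of 10 were lower in LIP against EV, where 2.57% of all genes passed, though LIP and EV were not treated as paired. The summed level in LIP, 14527 to 28775 CPM, lay below that in EV and overlapped with that in LAP, 24581 to 41316 CPM. The part of these markers in the Cebpd difference was not tested, and in bulk RNA fewer cells of a type and less RNA per cell cannot be told apart.

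**Figure D5:**
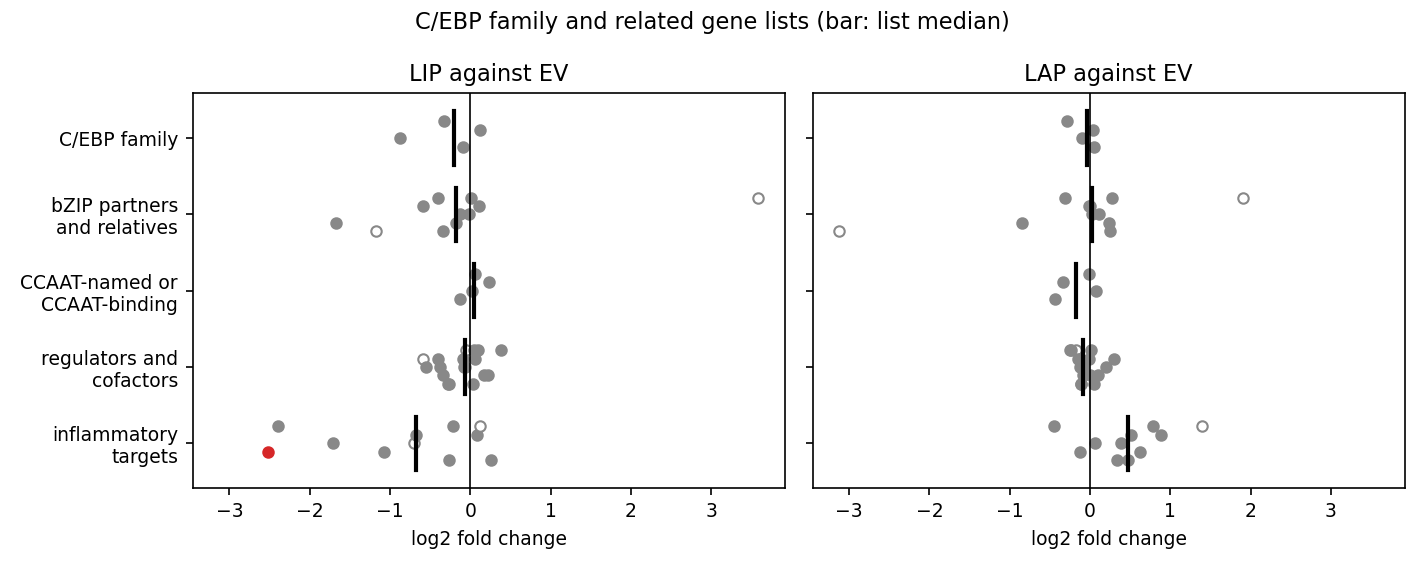
Log2 fold changes (horizontal axis) of the C/EBP family and of 4 related gene lists in LIP against EV and LAP against EV, which share the EV libraries. Points are genes, open for a mean under 20 counts and red past the adjusted p threshold, and bars are list medians. The inflammatory median is -0.68 in LIP and 0.47 in LAP, with Cxcl5 as the red point.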

How the data were processed

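RNA was sequenced as 50 bp single-end reads from unstranded TruSeq v2 libraries. As the submitters' processing notes state, bcl2fastq 1.8.3, TopHat 1.4.1 and HTSeq 0.5.4 were used. The methods name the genome as GRCh38/mm10 with a RefSeq annotation, and mm10 is the mouse build. The authors deposited raw counts per gene symbol, without normalization. The handling of strand and of reads on overlapping genes is not given in the sources used here, and 0 library columns were left unused.

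Groups were taken from the labels. Pairs of groups were compared on their 6 libraries, for genes with 1 count or more. After TMM scaling, edgeR 4.0.16 (R 4.3.3) was run (quasi-likelihood test, no covariates, Benjamini-Hochberg over all genes, threshold 0.05), after a test on simulated data. Standard errors are the log2 fold change over the square root of F, and 95% intervals use the degrees of freedom of the test. CPM were scaled by TMM over all 9 libraries, with 3 libraries per group behind each mean and SD. The exact permutation test of single genes was two-sided. Lengths per kb are RefSeq spans for the members with 1 exon and GENCODE exons for Cebpg; the GENCODE transcript of Cebpd has 3746 bases, with which it was at 48.9 CPM per kb in EV. Figures were drawn with matplotlib 3.10.9.

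The members and the gene lists (bZIP partners, CCAAT-named genes, regulators, inflammatory, adipogenic and granulocytic targets, and cell type markers) were chosen with earlier results of these data known. Named are the members, listed genes that passed or had a list's smallest p (with exceptions among markers and low counts), Ddit3, Atf4 and Cebpz, overlapping genes and, for each of 4 members (mean of 20 counts or more), the 3 genes (mean of 50 counts or more) with the highest r. Further genes serve as examples. As alternatives, a replicate block, a joint model of all 9 libraries, a minimum of 10 counts per library, filterByExpr, scaling by totals or by DESeq2's size factors, edgeR's exact test, DESeq2 1.42.0 and the omission of each library were tried.

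The labels number the libraries 1 to 3 in each group. Over 11535 genes, deviations from the group mean of same-numbered libraries had r of 0.524, 0.210 and 0.511 in LAP and EV and of 0.558, 0.413 and 0.466 in LIP and LAP, which were treated as paired. In LIP and EV they were 0.290, -0.121 and 0.231, which were not. This choice was made from the data. As LAP was paired by number with both, whether LIP and EV are paired is not settled.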

Additional observations from a re-analysis of the deposited data

How the results depend on the processing

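The direction and call of each member were recomputed in 8 other settings and with each of 6 libraries left out per comparison. Among the log2 fold changes, 93 of the former kept direction and side of the threshold, 2 passed it and 1 turned its sign, that of Cebpa in LIP against LAP (0.026 with total counts). With 1 library left out, 60 kept both, 1 passed and 11 turned their sign, all of them of members far from the threshold. The log2 fold changes then ranged from -1.27 to -0.64 for Cebpd in LIP against EV, from -1.17 to -0.53 in LIP against LAP and from -0.27 to 0.00045 in LAP against EV. They ranged from -0.24 to 0.10 for Cebpa in LIP against LAP, from -0.057 to 0.15 and from -0.030 to 0.19 for Cebpb in LAP against EV and LIP against LAP, and from -0.15 to 0.00023 and from -0.086 to 0.13 for Cebpg in LIP against EV and LAP against EV.

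Deviations of same-numbered LIP and EV libraries had r of 0.290, -0.121 and 0.231, and these libraries were not treated as paired, a choice that the data do not settle. With the replicate block, Cebpd in LIP against EV was -0.94 (adjusted p = 0.0126), so that 1 member passed, and 2 of 3 LIP libraries correlated best with the EV library of their own number. In LIP against LAP, where the libraries were treated as paired, Cebpd was -0.84 with the replicate block, again 1 member past the threshold. Its SE there reflects a spread shared across genes more than that of Cebpd itself. The block changed no other member's call. In LIP against EV it called 2.57% of all genes, and of the lists 5 of 11 inflammatory genes (Lcn2, C3, Ccl2, Cxcl1 and Cxcl5), 4 of 10 fibroblast markers (Col1a2, Thy1, Pdgfra and Lum), Lpl and Dbp, all lower. Leaving out a library left 0 to 1 members past the threshold in LIP against EV.

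The number of all genes past the threshold moved more. In LIP against EV it was 72, and 321 with DESeq2, 301 with the exact test, 36 with total counts, 4 with filterByExpr, 0 with at least 10 counts in every library (1313 at an unadjusted p under 0.05), 157 with all 9 libraries, 467 with the replicate block and 22 to 367 with 1 library left out. In LAP against EV it was 11, and 26 with DESeq2, 33 with the exact test, 3 with filterByExpr, 0 with at least 10 counts (259 at an unadjusted p under 0.05), 5 with all 9 libraries, 54 with the replicate block and 6 to 62 with 1 library left out. In LIP against LAP it was 190, and 113 with total counts, 2 with filterByExpr, 0 with at least 10 counts (1081 at an unadjusted p under 0.05), 1183 with the replicate block and 7 to 448 with 1 library left out. Filters test fewer genes, and the cause of the other moves was not tested.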
